A study of Mus musculus with 18 samples.

Results

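Timp3, Nts, Sertad4 and Lrrk2 are 4 genes of 55487 listed in each library selected on the difference between interferon gamma (IFNγ) and control libraries, because that difference was not alike in mouse islet alpha, beta and delta cells. The choice used the measured IFNγ differences themselves, so values of the 4 genes are given below as a description with no test, and tests are given only for other genes. All 4 passed the filter on low counts, which kept 17338 genes. Islets of adult male C57BL/6 mice, with no genetic change named, were kept for 20 h with 5 ng/mL IFNγ or without it, and were then dissociated and sorted. The sort took cells carrying Epcam and lacking CD45, TER119 and CD31, and called them alpha cells where CD24 was low and CD71 absent, beta cells where CD24 was low and CD71 present, and delta cells where CD24 was high. The 6 groups were alpha IFNγ, alpha control, beta IFNγ, beta control, delta IFNγ and delta control, with 3 libraries each, and the cytokine met the whole islet rather than a single purified cell type.

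TIMP3, the product of Timp3, is a secreted protein that binds to extracellular matrix and inhibits matrix metalloproteases and the membrane-bound and secreted ADAM and ADAMTS proteases, ADAM17 among them. Nts encodes the precursor of neurotensin, a peptide of neurons and gut endocrine cells that is cut out by prohormone convertases and acts on neurotensin receptors. SERTAD4 belongs to a small family of proteins with a SERTA domain, of which other members act with E2F and DP factors in transcription during the cell cycle. LRRK2 is a large protein with a kinase and a GTPase domain that phosphorylates Rab GTPases on vesicle membranes and is known from inherited Parkinson's disease and from immune cells. IFNγ, which T cells and natural killer cells release, acts through its receptor and JAK kinases on genes that often hold GAS elements (gamma-activated sites), and the induced factor IRF1 binds ISRE elements.

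In the annotation of GENCODE M21 on GRCm38, Timp3 (ENSMUSG00000020044) lies on the plus strand of chromosome 10 from 86300372 to 86349506 and Nts (ENSMUSG00000019890) on the minus strand of the same chromosome from 102481756 to 102490486. Sertad4 (ENSMUSG00000016262) lies on the minus strand of chromosome 1 from 192844488 to 192855756, and Lrrk2 (ENSMUSG00000036273) on the plus strand of chromosome 15 from 91673175 to 91816120. All 4 are protein-coding genes. The window of 250 bases before to 50 bases after the first annotated start of each gene, from RefSeq on GRCm38.p6, is printed 5′ to 3′ because the genes were picked as cytokine responders, and capitals mark the only match found to the motifs searched.
Timp3, chr10:86300162-86300461, plus strand: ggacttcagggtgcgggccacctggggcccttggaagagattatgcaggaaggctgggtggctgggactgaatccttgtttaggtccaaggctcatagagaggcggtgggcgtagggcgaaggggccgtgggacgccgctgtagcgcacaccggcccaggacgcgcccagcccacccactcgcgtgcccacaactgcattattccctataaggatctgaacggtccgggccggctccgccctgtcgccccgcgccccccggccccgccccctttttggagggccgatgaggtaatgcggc
Nts, chr10:102490369-102490668, minus strand: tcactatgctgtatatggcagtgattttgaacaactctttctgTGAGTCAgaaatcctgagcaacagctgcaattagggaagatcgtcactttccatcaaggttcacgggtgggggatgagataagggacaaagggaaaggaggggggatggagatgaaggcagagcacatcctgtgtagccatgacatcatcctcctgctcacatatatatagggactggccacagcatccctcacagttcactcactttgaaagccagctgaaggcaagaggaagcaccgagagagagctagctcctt
Sertad4, chr1:192855703-192856002, minus strand: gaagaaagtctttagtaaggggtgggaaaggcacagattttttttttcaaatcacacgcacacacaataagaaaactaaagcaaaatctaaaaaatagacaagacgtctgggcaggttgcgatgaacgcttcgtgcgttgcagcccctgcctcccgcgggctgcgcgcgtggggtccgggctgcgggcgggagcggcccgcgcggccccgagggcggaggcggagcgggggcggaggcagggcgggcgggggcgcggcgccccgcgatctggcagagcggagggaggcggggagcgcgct
Lrrk2, chr15:91672974-91673273, plus strand: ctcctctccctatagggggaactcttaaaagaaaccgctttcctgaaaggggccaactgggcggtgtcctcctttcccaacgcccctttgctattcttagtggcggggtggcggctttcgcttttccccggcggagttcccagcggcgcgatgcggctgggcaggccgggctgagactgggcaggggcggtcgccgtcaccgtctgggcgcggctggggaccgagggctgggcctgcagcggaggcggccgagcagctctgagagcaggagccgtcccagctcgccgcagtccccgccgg
Both strands were searched for the GAS letters TTCNNNGAA, the ISRE motif, the AP-1 letters TGANTCA and the CRE letters TGACGTCA, and these letters do not hold each other. Among 32851 mouse promoter windows of this length, 8.3% held the GAS letters, 3.44% the ISRE motif, 7.81% the AP-1 letters and 1.79% the CRE letters. The Nts window held TGAGTCA, an AP-1 match that starts 207 bases before the annotated start (offset -207), and the other 3 windows held none of the motifs. A second annotated Sertad4 start, of 2, also held none. G and C made up 67.0% of the Timp3 window, 64.7% of that of Sertad4, 68.7% of that of Lrrk2 and 49.0% of that of Nts. A match is a run of letters and not a measured binding site, and the lack of one says only that those letters are not in these 300 bases.

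Library totals lay between 6128845 and 11531734 expected counts. The hormone of each cell type was high in its own libraries, since Gcg stood between 74600 and 117000 CPM (counts scaled to a common library size) in alpha libraries, Ins2 between 17500 and 30200 CPM in beta libraries and Sst between 9560 and 35900 CPM in delta libraries. Other hormones were also seen, unevenly, with Ins2 from 291 CPM in alpha IFNγ replicate 1 to 6500 CPM in alpha control replicate 2. Gcg reached 2980 CPM in beta control replicate 2 and 2260 CPM in delta control replicate 3. Of 14 IFNγ response genes, 13 rose in alpha, 14 in beta and 14 in delta cells by edgeR's quasi-likelihood test, with median log2 differences of 3.49, 4.39 and 4.30, against medians of -0.01, 0.00 and -0.05 over all tested genes, of which 0.94%, 1.06% and 1.21% rose. These lists were fixed with results of the data known. The file names carry 9 dates, of which 2 hold both treatments of alpha and beta cells and 0 hold both treatments of delta cells. Low-GC genes stood above high-GC genes in alpha IFNγ replicates 1 and 3 (log2 balance 1.001 and 0.855) and below them in alpha IFNγ replicate 2 (-0.564), where alpha control libraries had -0.475, -0.712 and -0.755. This balance was 0.804, 0.433 and 0.854 in delta IFNγ libraries, against -0.102, -0.058 and 0.858 in delta control libraries, and its part in the differences below was not tested beyond the GC correction named with them.

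Timp3 stood higher with IFNγ in alpha cells, by more than in the other cell types. Replicates 1 to 3 had 122.6, 19.7 and 24.9 CPM in alpha IFNγ, against 6.25, 4.01 and 4.17 CPM in alpha control. All 3 alpha IFNγ libraries stood above all 3 alpha control libraries, and replicate 1 stood far above the others. The date of alpha IFNγ replicate 1 held no control library, and its only other library was delta IFNγ replicate 1. The mean was 55.7 ± 58.0 CPM in alpha IFNγ and 4.81 ± 1.25 CPM in alpha control (SD, n = 3 each), an 11.6-fold difference (log2 3.54, SE 0.55). Without alpha IFNγ replicate 1 the log2 difference was 2.22 (SE 0.35). In the 2 shared dates, where an alpha IFNγ library can be set beside an alpha control library of the same date, the ratio was 3.15 in one and 6.21 in the other. With GC offsets it was 3.40 on the log2 scale. In these bulk samples, a change in how many cells of a kind were sorted and a change in RNA per cell cannot be told apart.

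In delta cells Timp3 had 15.03, 9.17 and 6.64 CPM with IFNγ, against 5.15, 5.95 and 4.98 CPM in control. The lowest IFNγ library lay just above the highest control library, and the fitted log2 difference was 0.93 (SE 0.52). With date as a term it turned to -0.89 (SE 0.56), in a design where no date held delta cells of both treatments. In beta cells Timp3 was low in every library, at 1.42, 2.13 and 2.45 CPM with IFNγ against 2.42, 1.64 and 1.37 CPM in control. These beta groups overlapped, the log2 difference was 0.17 (SE 0.65), and the ratio within the shared dates was 0.587 and 1.30. The alpha difference exceeded the beta difference by 3.37 on the log2 scale (SE 0.85), or by 2.05 (SE 0.52) without alpha IFNγ replicate 1. The delta difference minus the alpha one was -2.61 (SE 0.74), or -1.29 (SE 0.47) without that library. The order of mean levels was alpha IFNγ, delta IFNγ, delta control, alpha control, beta IFNγ and beta control, of which delta control and alpha control overlapped, as did the beta groups.

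**Figure D1:**
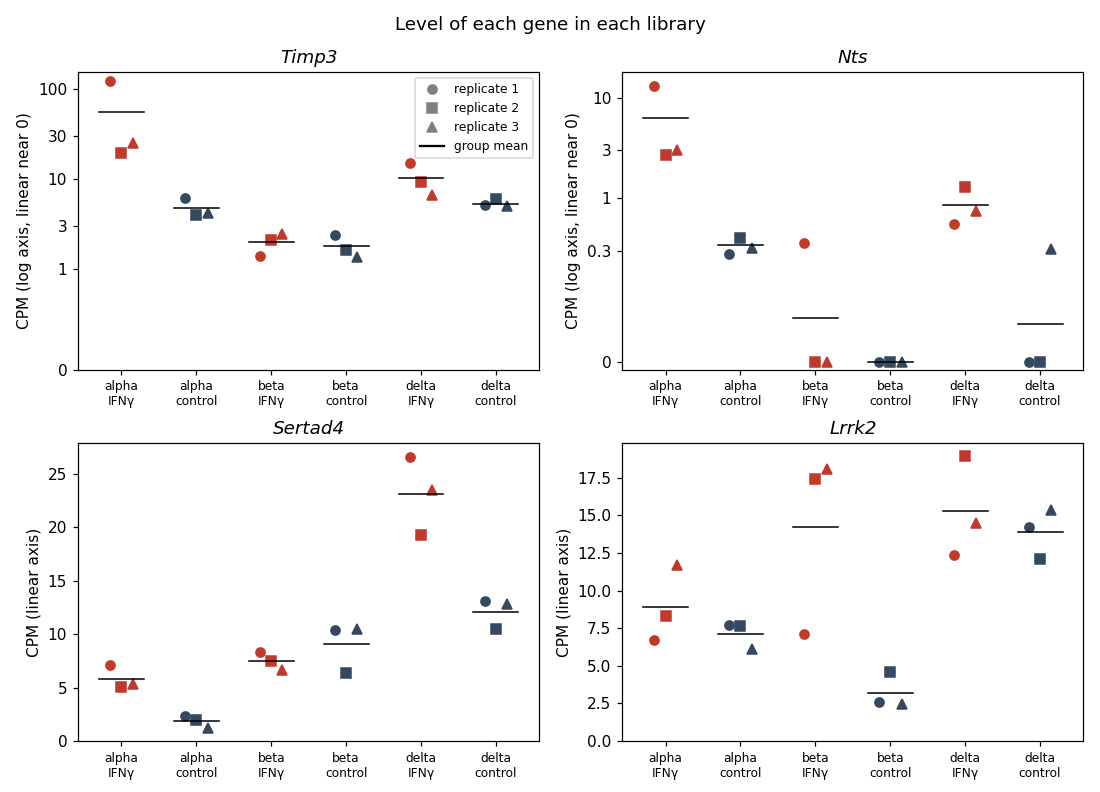
CPM of Timp3, Nts, Sertad4 and Lrrk2 in each library, by cell type, with IFNγ in red left of control in dark blue. Symbols mark the replicate number and black lines the mean of 3 libraries. Timp3 and Nts have a log axis that is linear near 0, and Sertad4 and Lrrk2 have a linear axis. Alpha IFNγ replicate 1 stands apart for Timp3 (122.6 CPM) and Nts (13.1 CPM), and beta IFNγ replicate 1 stands below its group for Lrrk2 (7.11 CPM).

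Nts was close to absent in control cells and rested on few counts outside IFNγ-treated alpha cells. Replicates 1 to 3 held 152, 27 and 31 counts in alpha IFNγ, against 2, 3 and 3 counts in alpha control. As levels these were 13.1, 2.71 and 3.00 CPM in alpha IFNγ, against 0.291, 0.401 and 0.321 CPM in alpha control. The groups did not overlap, and as with Timp3 the highest value was that of alpha IFNγ replicate 1. The summed counts were 210 in alpha IFNγ and 8 in alpha control, a ratio of 20.3 after scaling by library size (95% counting interval 10.1 to 47.5, exact, counting error only). The fitted log2 difference was 4.16 (SE 0.92), 3.03 (SE 0.96) without alpha IFNγ replicate 1 and 3.44 (SE 0.85) with GC offsets. Within the shared dates the ratios were 9.32 and 7.47, though each control library there held 3 counts or fewer.

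In delta cells Nts had 4, 10 and 9 counts with IFNγ, against 0, 0 and 3 counts in control. The summed counts of 23 and 3 give a ratio of 7.86 with a counting interval of 2.37 to 40.9. The 3 delta IFNγ libraries (0.557, 1.27 and 0.738 CPM) stood above the highest delta control library (0.311 CPM). The fitted log2 value of 2.89 (SE 1.10) rested on these few counts, since it was 1.70 with a prior count of 2, 5.91 without delta control replicate 3 and -1.44 (SE 1.70) with a date term. In beta cells 2 counts were seen in a single IFNγ library, and 0 counts over the 3 control libraries, at which a level of 3 counts over the group could not be told from 0. No fold is given for beta cells, and Nts was not detectable there at this depth beyond those 2 counts. Counts this low leave the difference of the Nts response between cell types without a usable estimate.

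Sertad4, in contrast, was present in every library and stood higher with IFNγ in both alpha and delta cells. Alpha IFNγ replicates had 7.07, 5.01 and 5.32 CPM, against 2.32, 2.01 and 1.18 CPM in alpha control. Delta IFNγ replicates had 26.6, 19.2 and 23.4 CPM, against 13.1, 10.5 and 12.8 CPM in delta control. Neither pair of groups overlapped, and no single library carried either difference. The log2 difference was 1.68 (SE 0.30) in alpha cells and 0.93 (SE 0.26) in delta cells, and leaving out any 1 library kept the alpha value between 1.42 and 1.88 and the delta value between 0.81 and 1.04. The alpha ratio within the shared dates was 2.16 and 2.65, and a date term lowered the delta value to 0.48 (SE 0.53).

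Beta IFNγ libraries had 8.35, 7.47 and 6.64 CPM of Sertad4, against 10.4, 6.32 and 10.5 CPM in beta control. These groups overlapped, with a log2 difference of -0.28 (SE 0.27) that was 0.24 on the TPM scale, where the median of all genes was itself shifted by 0.16. The ratio within the shared dates was 0.803 and 1.18. The alpha difference exceeded the beta difference by 1.95 (SE 0.41), or by 1.36 (SE 0.45) with a date term. The delta difference exceeded the beta difference by 1.21 (SE 0.37), or by 0.46 (SE 0.61) with a date term. The delta difference minus the alpha one was -0.75 (SE 0.39). Sertad4 therefore stood higher with IFNγ in 2 cell types and not in 1 alone. Its levels ran from delta IFNγ (23.1 ± 3.69 CPM) and delta control (12.1 ± 1.41 CPM) through both beta groups and alpha IFNγ (5.80 ± 1.11 CPM) to alpha control (1.84 ± 0.593 CPM). Delta control and beta control, both beta groups, and beta IFNγ and alpha IFNγ overlapped as neighbours in this order.

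Lrrk2 was the gene of the 4 whose difference lay in beta cells. Replicates 1 to 3 had 7.11, 17.4 and 18.1 CPM in beta IFNγ, against 2.56, 4.57 and 2.43 CPM in beta control. The groups did not overlap, and the lowest IFNγ library was replicate 1. The mean was 14.2 ± 6.15 CPM in beta IFNγ and 3.19 ± 1.20 CPM in beta control (SD, n = 3 each), a 4.42-fold difference (log2 2.14, SE 0.36) that stayed between 1.94 and 2.51 when any 1 library was left out. Within the shared dates the ratio was 2.77 and 3.82. The deposited name of beta control replicate 3 reads papain in the place of CD71, and this library (2.43 CPM) lay beside beta control replicate 1 (2.56 CPM).

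In alpha cells Lrrk2 had 6.73, 8.32 and 11.7 CPM with IFNγ, against 7.70, 7.63 and 6.09 CPM in control. Delta libraries had 12.4, 18.98 and 14.5 CPM with IFNγ, against 14.2, 12.1 and 15.4 CPM in control. Both pairs overlapped, with log2 differences of 0.32 (SE 0.33) and 0.14 (SE 0.32). The alpha difference minus the beta difference was -1.82 (SE 0.48) and the delta difference minus the beta difference was -2.01 (SE 0.48). The delta minus beta value was -1.37 (SE 0.75) with a date term and -1.27 on the TPM scale. In level, beta IFNγ cells overlapped with delta IFNγ cells (15.3 ± 3.37 CPM) and with delta control cells (13.9 ± 1.65 CPM), and beta control cells were the lowest group.

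Scaled for transcript length as TPM (a length-scaled share of all transcripts, as deposited), Timp3 averaged 6.16 ± 5.80 in alpha IFNγ and 1.29 ± 0.677 in alpha control. This put its mean at the 65.7 percentile of tested genes in alpha IFNγ and at the 30.7 percentile in alpha control. Nts reached 2.75 ± 2.29 TPM in alpha IFNγ (percentile 47.4) and 0.183 ± 0.0289 TPM in alpha control (percentile 6.64). Sertad4 had 3.44 ± 0.656 TPM in delta IFNγ (percentile 55.3) and 1.99 ± 0.0862 TPM in delta control (percentile 40.9), and Lrrk2 had 1.08 ± 0.516 TPM in beta IFNγ (percentile 30.5) and 0.243 ± 0.0971 TPM in beta control (percentile 12.5). All 4 were thus genes of low or middle level in these cells.

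**Figure D2:**
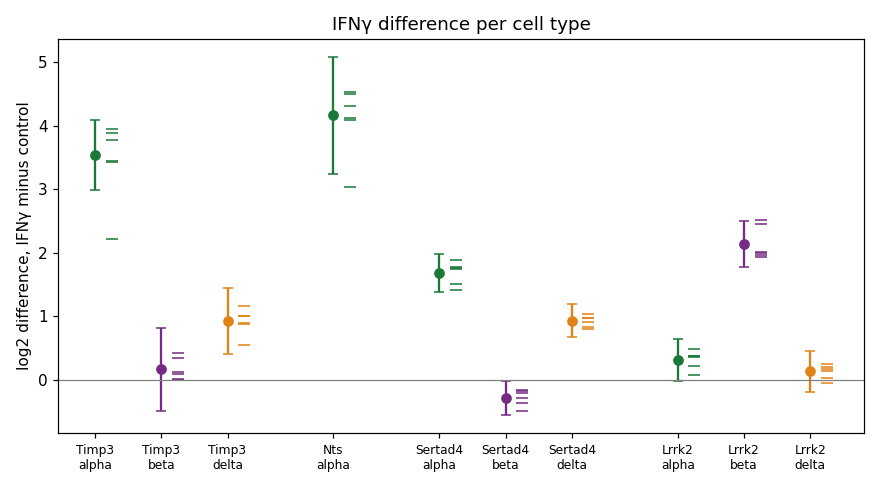
Log2 difference of IFNγ minus control for each gene and cell type (alpha green, beta purple, delta orange). Points are the fitted values with bars of 1 SE, and short dashes beside them are the values when 1 library of that cell type is left out. The Timp3 alpha value of 3.54 has a dash at 2.22 and the Nts alpha value of 4.16 has one at 3.03, both without alpha IFNγ replicate 1, while Sertad4 in alpha and delta cells and Lrrk2 in beta cells keep near their values. Nts in beta and delta cells is left out because control counts were 3 or fewer.

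The groups of IFNγ and control did not overlap for 3 of the 4 genes in alpha cells, where 9.62% of all tested genes stood above control in this way, for 1 of 4 in beta cells (6.49% of all) and for 3 of 4 in delta cells (7.71% of all). Since the choice of genes used these contrasts, nothing is read from these counts. The label of a responder selective for 1 cell type was checked against the difference of responses over all genes. By edgeR's quasi-likelihood test, 0.0% of the 17338 genes passed in any pair of cell types. At an unadjusted p under 0.05 there were 2305 genes (13.3%) for alpha against beta, 822 (4.74%) for delta against beta and 783 (4.52%) for delta against alpha. The shares of the pairs with delta cells were near the share of 0.05 that such a threshold passes when nothing differs. DESeq2 called 11, 4 and 6 genes in the same pairs, and limma-voom 0, 0 and 1. Leaving out alpha IFNγ replicate 2, the alpha IFNγ library with the other GC balance, gave 1375 genes for alpha against beta, 1 for delta against beta and 3 for delta against alpha. The values therefore show Timp3 and Nts highest in IFNγ-treated alpha cells, with delta IFNγ libraries also above delta control, Sertad4 higher with IFNγ in alpha and delta cells, and Lrrk2 in beta cells, and the genes are called here by name rather than as selective.

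Levels were also compared between cell types, first in control libraries and then averaged over both treatments. Both use libraries on which the genes were picked, control libraries included, and carry part of the picked difference. These values are a description with no test. In control libraries Timp3 averaged 4.81 ± 1.25 CPM in alpha cells and 5.36 ± 0.515 CPM in delta cells, which overlapped, against 1.81 ± 0.546 CPM in beta cells, which lay below every alpha and delta control library. Averaged over both treatments, the log2 difference was 3.08 (SE 0.42) for alpha minus beta, 1.94 (SE 0.42) for delta minus beta and -1.14 (SE 0.37) for delta minus alpha. The last of these was -0.48 without alpha IFNγ replicate 1, and delta minus beta was 0.87 with a date term. Nts is not compared in this way, because outside alpha IFNγ no library held more than 10 counts and it passed the filter through that group alone.

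Sertad4 in control libraries averaged 12.1 ± 1.41 CPM in delta, 9.07 ± 2.38 CPM in beta and 1.84 ± 0.593 CPM in alpha cells, and delta and beta libraries overlapped while all alpha libraries lay below both. Averaged over both treatments, the log2 difference was -1.34 (SE 0.20) for alpha minus beta, 1.02 (SE 0.19) for delta minus beta and 2.36 (SE 0.20) for delta minus alpha. The low level in alpha control cells was also a term of the picked alpha difference, so it did not stand apart from the choice. Lrrk2 in control libraries averaged 13.9 ± 1.65 CPM in delta, 7.14 ± 0.908 CPM in alpha and 3.19 ± 1.20 CPM in beta cells, with no overlap between these groups. Its averaged log2 difference was 1.10 (SE 0.24) for delta minus beta, 0.87 (SE 0.23) for delta minus alpha and 0.23 (SE 0.24) for alpha minus beta.

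**Figure D3:**
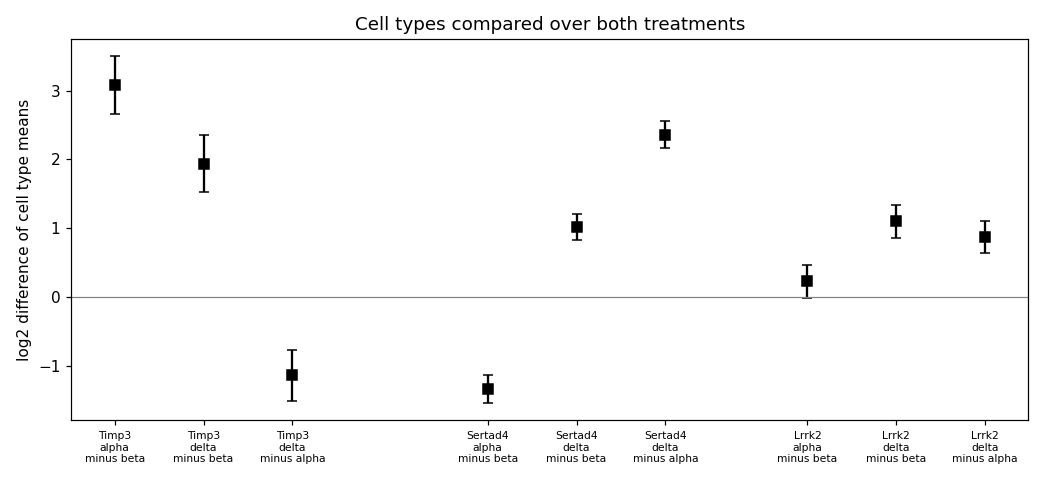
Log2 difference of cell type means, each averaged over IFNγ and control, with bars of 1 SE. No test was made. Sertad4 has its largest difference between delta and alpha cells (2.36) and Timp3 between alpha and beta cells (3.08). Nts is left out because it rested on alpha IFNγ libraries.

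Of the other genes in the pathways of the 4, 1 passed for IFNγ in 1 cell type, apart from genes of IFNγ signalling itself. Of 6 tested members of the TIMP family and its binding partners, none passed in any cell type, where 0.975%, 1.06% and 1.39% of all genes passed in alpha, beta and delta cells in either direction. Timp1, Timp2 and Timp4, the paralogs of Timp3, had log2 differences of -0.02, -0.80 and 0.14 in alpha cells. Timp2 had 14.9 ± 5.53 CPM with IFNγ and 25.8 ± 2.24 CPM in control. Of 12 tested metalloproteases and regulators, Adamts1, a secreted protease of proteoglycans, rose in delta cells, to 28.3 ± 6.71 CPM with IFNγ, against 9.0 ± 1.75 CPM in control (log2 1.65, adjusted p = 0.0128). This call was lost with a date term and without delta IFNγ replicate 1, delta control replicate 1 or delta control replicate 2. Adam17, the protease that releases TNF from membranes, had log2 differences of 0.62, 0.04 and 0.05 in alpha, beta and delta cells, none past the threshold (adjusted p = 0.151 in alpha cells). Between cell types averaged over both treatments, 33.2% of all genes passed for alpha against beta, 45.5% for delta against beta and 30.3% for delta against alpha. By the same test, Timp1 was higher in delta than in beta cells by 7.33 (adjusted p = 1.61e-08). It averaged only 0.0395 CPM in beta IFNγ and 0.0475 CPM in beta control, so the size of this difference rests on counts near 0. Timp4 was lower in delta than in beta cells (log2 -1.19, adjusted p = 0.000989). Lrp1, a receptor that takes up TIMP3, was higher in alpha than in beta cells by 3.06 (adjusted p = 6.51e-08). It was also higher in delta than in beta cells, by 3.43 (adjusted p = 1.11e-08).

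The receptors of neurotensin were at or near 0. Ntsr1 averaged at most 0.0592 CPM in any group and Ntsr2 at most 0.0390 CPM, and both fell below the filter. Sort1, the sorting receptor that also binds neurotensin, averaged 145 CPM in alpha IFNγ and 165 CPM in alpha control, with no call for IFNγ in any cell type. Sorl1, a related sorting receptor, was higher in delta than in alpha cells by 2.68 (adjusted p = 2.71e-08). Of 11 tested genes of neurotensin processing and breakdown, none passed for IFNγ. Pcsk2, a convertase that also matures glucagon and somatostatin precursors, had 2860 ± 421 CPM in alpha IFNγ and 3280 ± 246 CPM in alpha control, and Pcsk1, a convertase best known for insulin, was lower in alpha than in beta cells by 3.06 (log2 -3.06, adjusted p = 0.000155).

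Among the SERTA family and its cell cycle partners, none of 12 tested genes passed for IFNγ, and Sertad1, Sertad2, Sertad3 and Cdca4, the paralogs of Sertad4, had log2 differences between -0.69 and 0.08 in alpha cells and between -0.48 and 0.20 in delta cells. Among 19 tested LRRK kinases, Rab proteins and regulators, none passed for IFNγ in any cell type. Lrrk1, the paralog of Lrrk2, had 2.59 ± 0.655 CPM in beta IFNγ and 1.25 ± 0.467 CPM in beta control (log2 1.02, adjusted p = 0.91). Rab8a, Rab10 and Rab29, substrates or partners of LRRK2, had log2 differences of 0.11, -0.19 and 0.56 in beta cells, all with an adjusted p of 1. Between cell types Rab3b was higher in delta than in alpha cells by 2.76 (adjusted p = 5.36e-10) and Rab3c was lower (log2 -2.63, adjusted p = 8.27e-08). Among genes of the IFNγ receptor and proximal signalling, Socs1, a feedback inhibitor of JAK kinases, rose in beta cells (log2 3.82, adjusted p = 0.000762) and delta cells (4.57, adjusted p = 0.000124), and Jak2 rose in delta cells (0.89, adjusted p = 0.0425). In alpha cells Socs1 had a log2 difference of 1.79 (adjusted p = 0.128) and Jak2 one of 0.83 (adjusted p = 0.0861). Ifngr1, a chain of the receptor, had 9.39 ± 1.02 CPM in alpha IFNγ and 7.98 ± 0.624 CPM in alpha control, without a call. None of the listed genes passed in a difference of responses between cell types.

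Genes that overlap the 4 or lie within 200 kb of them were also read, since reads of overlapping genes could be shared in counting. Timp3 had fractional expected counts in most libraries, such as 1422.47 in alpha IFNγ replicate 1. Those of Nts, Sertad4 and Lrrk2 were whole numbers. Which genes shared reads with Timp3 was not tested. Syn3, which encodes a synapsin and holds Timp3 within its span on the opposite strand, had log2 differences of 0.51 (adjusted p = 0.387) in alpha, 0.25 in beta and -0.36 in delta cells, and none passed. Gm15867, which overlaps Sertad4 on the opposite strand, had 0 counts in all libraries. Rassf9, 21736 bases from Nts, had 8.48 CPM in alpha IFNγ and 3.77 CPM in alpha control (log2 1.17, adjusted p = 0.166). No neighbour passed for IFNγ in any cell type.

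Patterns over the 18 libraries were compared by Pearson's correlation of log2 CPM, as a description that includes cell type, depth and GC balance shared by the libraries. Timp3 and Nts had r = 0.892 over 18 libraries, and Timp3 ranked 2 among all tested genes in likeness to Nts. Both were picked on IFNγ differences in these same libraries, and Nts had 0 counts in several of them. This r therefore restates the picked difference in part and is no separate result. The genes closest to Timp3 were Gm43556 (r = 0.917), Plag1 (0.912) and Kdm7a (0.909), and beside Timp3 those closest to Nts were Zeb1 (0.897) and Stk24 (0.891). Those closest to Sertad4 were Amigo2 (0.944), Cat (0.924) and Slc25a40 (0.920), and those closest to Lrrk2 were Thrb (0.855), Mill2 (0.849) and Parm1 (0.816). Sertad4 and Lrrk2 were not alike Timp3 (r = 0.056 and 0.237).

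**Figure D4:**
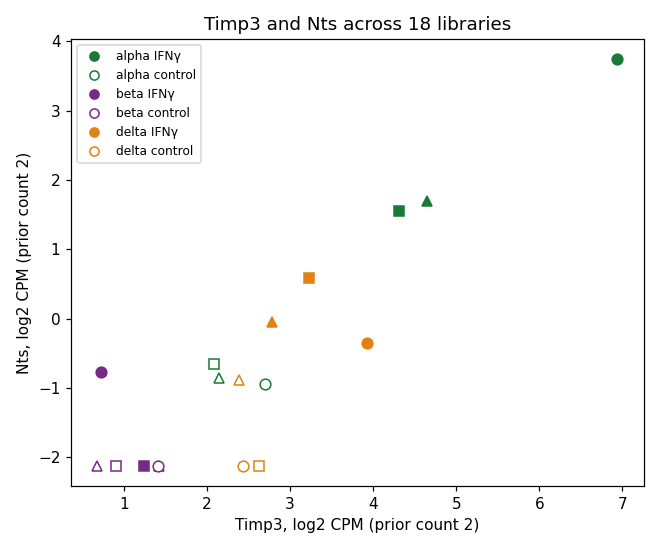
Nts against Timp3 as log2 CPM (prior count 2) in each of the 18 libraries, coloured by cell type, filled for IFNγ and open for control, with the symbol marking the replicate. The 3 alpha IFNγ libraries sit at the upper right, with replicate 1 at 6.94 for Timp3 and 3.74 for Nts. Libraries without an Nts count lie along the bottom. Both genes were picked on IFNγ differences in these libraries.

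Markers of other cells were read beside these differences. The 12 acinar markers summed to between 592 and 2510 CPM in delta IFNγ and between 1510 and 3180 CPM in delta control. In alpha cells they summed to between 3.19 and 21.2 CPM with IFNγ and between 13.1 and 57.1 CPM in control. In beta cells these sums ran from 2.96 to 191 CPM with IFNγ and from 0.761 to 2310 CPM in control, highest in beta control replicate 1. The summed level of 9 markers of mesenchymal cells, in which Timp3 is known to be expressed, was 4.31 to 6.22 CPM in alpha IFNγ. It was 9.59 to 13.1 CPM in alpha control. Col1a1, Col3a1, Pdgfra, Pdgfrb, Dcn and Lum were at 0 in all alpha IFNγ libraries, where the sum came from Col1a2, Rgs5 and Acta2. In alpha control, Pdgfra, Pdgfrb and Acta2 were at 0, and Col1a1 and Col3a1 were each seen only in replicate 2, at 0.134 CPM. In delta cells this sum was 11.8, 5.61 and 10.5 CPM with IFNγ, against 2.39, 2.27 and 14.4 CPM in control. The 8 endothelial markers summed to between 2.03 and 4.01 CPM in alpha IFNγ and between 4.65 and 6.73 CPM in alpha control. In delta cells they summed to 11.4, 6.37 and 4.67 CPM with IFNγ, against 6.11, 5.95 and 4.88 CPM in control, and the highest library, delta IFNγ replicate 1, was also the delta library with the most Timp3. The 6 Schwann cell markers summed to between 9.93 and 17.1 CPM in alpha IFNγ and between 6.41 and 12.3 CPM in alpha control, with the highest sum in alpha IFNγ replicate 1, and to between 12.9 and 15.4 CPM in delta IFNγ and between 12.4 and 16.2 CPM in delta control. For Lrrk2, which immune cells express, 10 immune markers summed to 3.44 to 5.15 CPM in beta IFNγ and 1.98 to 4.42 CPM in beta control. Of these markers, 7 were at 0 in all beta IFNγ libraries and 6 in all beta control libraries. In beta IFNγ the sum came from Cd68, Csf1r and Cd79a. For Nts, 6 gut endocrine markers were summed, of which Pyy and Neurod1 are also expressed in islet cells. Their sum lay between 1270 and 2340 CPM in alpha IFNγ and between 2000 and 2480 CPM in alpha control. In beta IFNγ, Cck, Gip, Tph1 and Sct were at 0, and the sum of 497 to 517 CPM there came from Pyy and Neurod1. The 8 alpha markers summed to between 137 and 854 CPM in delta IFNγ and between 259 and 2540 CPM in delta control, against at least 77300 CPM in alpha libraries, and the 6 delta markers to between 11600 and 17100 CPM in delta IFNγ and between 17300 and 38000 CPM in delta control. The part of any of these marker levels, mesenchymal and immune ones included, in the IFNγ differences was not tested.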

How the data were processed

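RNA was measured in 18 libraries, 3 for each of 6 groups of cell type and treatment. The authors made rRNA-depleted, random-primed libraries, sequenced paired ends, mapped them to GRCm38 by STAR 2.5.2b and estimated gene levels by RSEM (version not stated in the sources used here). The deposited files hold expected counts and TPM per gene. The study describes the libraries as strand-specific, while the use of strand in counting is not given. Expected counts were rounded and tested in 1 fit with a mean per group by edgeR 4.0.16 in R 4.3.3 (quasi-likelihood test, TMM scaling, filterByExpr with a minimum count of 10, Benjamini-Hochberg adjustment over 17338 genes, threshold 0.05). SE is the log2 difference divided by the root of F. CPM uses TMM-scaled totals. TPM was used as an alternative on the log2(TPM + 0.1) scale. The study fitted a batch with DESeq2, and the labels give none, so date was an alternative. A test of the 4 genes' averaged levels was planned and is not given, since the averages hold the libraries they were picked on. Groups come from the labels. The study calls each n an independent sample, which the labels do not detail, and p-values measure the spread between these libraries. Libraries of 1 date deviated together (mean r 0.177 over 18 pairs). Symbols came from GENCODE M21, while the methods name a later release, and matched 99.38% of IDs.

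The members and gene lists were chosen with earlier results of these data known. Named were the 4 genes, list genes past the threshold (up to 4 per list), direct paralogs, receptors or partners, overlapping genes, the 3 genes most alike each, and check genes. Alternatives were RLE scaling, no filter, DESeq2 1.42.0, limma-voom (limma 3.58.1), date, replicate block, GC offsets, prior count 2, only the groups compared, TPM and each library left out. The fits were tested on simulated data. Counting intervals are exact (95%) and, like the floor of 3 counts, cover counting error only. Some listed genes are not reported here by name.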

Additional observations from a re-analysis of the deposited data

Results flagged for a closer look

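Sertad4 stood out because its IFNγ libraries lay on different sides of the control mean in different cell types. Every IFNγ library lay above the control mean in alpha and in delta cells and below it in beta cells, although beta IFNγ and beta control libraries overlapped and the beta difference (log2 -0.28, SE 0.27) was close to its error, so no fall in beta cells is shown. The IFNγ difference in alpha cells exceeded that in beta cells by 1.95 on the log2 scale (SE 0.41), and the difference in delta cells exceeded it by 1.21 (SE 0.37). These differences were not tested, since the gene was picked for them. On the TPM scale they were 0.99 and 0.50, and the beta value was 0.24 in place of -0.28. With a date term the alpha minus beta difference was 1.36 (SE 0.45). The delta minus beta one was then 0.46 (SE 0.61), smaller than its error, and no date held delta cells of both treatments.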

How the results depend on the processing

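Alpha IFNγ replicate 1 raised the Timp3 and Nts alpha values, and the scale used also changed them. Its date held no control library, and the only other library of that date was delta IFNγ replicate 1. That library had the most Timp3 of the delta libraries (15.03 CPM). The part of this date in both values was not tested. For Timp3 in alpha cells (3.54) the value was 2.22 with a date term and 1.94 on the TPM scale with all libraries kept. In the 2 shared dates with a date block, an alternative chosen after seeing the data, it was 2.13. With 1 library left out it lay between 2.22 and 3.95. For Nts in alpha cells (4.16) these were 2.81, 3.05 and 2.98, and between 3.03 and 4.52. Sertad4 in alpha cells (1.68) was 1.26 in the shared dates and 1.23 on the TPM scale, and in delta cells (0.93) 0.48 with a date term. TPM shifted the median of all genes by -0.22 in alpha, 0.16 in beta and -0.18 in delta cells, and relative to that median the alpha values were 2.17 for Timp3, 3.27 for Nts and 1.46 for Sertad4.

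Of the averaged differences between cell types, Timp3 delta minus beta (1.94) was 0.87 with a date term, and Timp3 delta minus alpha (-1.14) lay between -1.35 and -0.48 with 1 library left out. Those of Sertad4 and Lrrk2 moved by less than the spread between libraries. The cause was not tested.

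Of the pathway genes other than the response lists, 0 passed in alpha cells, 4 with no filter and between 0 and 21 with 1 library left out, the highest without alpha IFNγ replicate 2. In delta cells 1 passed, 0 with a date term and between 0 and 2 with 1 library left out. Over all genes, alpha IFNγ calls numbered 169, and 1436 with no filter, 542 with DESeq2 and 3757 without alpha IFNγ replicate 2. Delta calls numbered 241, and 592, 394 and 109 with no filter, DESeq2 and date, and beta calls 184, and 339 with no filter. Differences of responses numbered 0 in all pairs, and 539, 152 and 106 with no filter and 1, 9 and 19 with date for alpha against beta, delta against beta and delta against alpha. Replicate numbers did not pair libraries (mean r 0.022 over 45 pairs), and with a replicate block the Timp3 alpha value was 3.27 and the count of called pathway genes did not change in any cell type. Nts depth limits every value that uses beta or delta control.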
